A study of Mus musculus with 20 samples.

Results

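DNA methylation of the maternal pronucleus in WT mock zygotes was compared with that of the oocyte, in 4 of the 20 libraries of the series, 2 of each kind. Members were the autosomal CpG positions with 5 or more reads in all 4 libraries, which were 896239 of the 3681520 positions read in any library. These positions filled 170459 tiles of 100 bp and 114370 tiles of 1000 bp that held at least 2 of them. The pronuclei, labelled WT-Mat, came from zygotes of superovulated WT (f/f) females aged 7 to 10 weeks, whose eggs were fertilised in vitro with C57BL/6J spermatozoa and cultured without aphidicolin. Pronuclei were taken out with a micromanipulator 12 hours after fertilisation, frozen at 13 hours, and assigned to a parent by their size and their distance to the polar body. A library was typically made from about 20 pronuclei with 21 cycles of PCR. For the oocyte libraries the labels give neither the genotype, the age of the females nor the number of cells. The labels do not say that the libraries of a pair came from separate females, so the spread between them may be technical. Reduced representation bisulfite sequencing was used, which reads the CpG-rich ends of fragments cut by the enzyme MspI and does not tell 5-methylcytosine from 5-hydroxymethylcytosine.

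After fertilisation both parental genomes lose DNA methylation before the embryo implants. The paternal genome is known for a fast loss in the zygote, where the dioxygenase Tet3 oxidises 5-methylcytosine, while the maternal genome is better known for dilution of the mark as DNA is copied without full maintenance. Imprinting control regions, which carry methylation from 1 parent only, are known to keep it through this period. The comparison asks how much of the methylation of the egg was still found on the maternal chromosomes late in the first cell cycle, and where.

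The 4 libraries held 40640760 and 45323299 calls (oocytes) and 66360907 and 59446017 calls (pronuclei), and the median depth at the member positions was 22, 25, 46 and 40 reads. Mitochondrial DNA made up 20.0% and 19.4% of calls in the oocyte libraries and 1.47% and 1.63% in the pronuclear ones. Chromosomes are listed in sorted order in the deposited WT-Mat files but not in those of the oocytes. Any difference in how these 2 sets were prepared or processed therefore cannot be told apart from the difference between the cells.

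Promoter sequences show what was read at the sites on which the results turn. Each stretch below comes from the RefSeq promoter table of build GRCm38.p6, 5′ to 3′ on the strand of the gene. It lies upstream of the start annotated for its entry there, which need not be the only start of the gene. Capitals mark the CpGs that were read in all 4 libraries. Emc7 (chr2:112454955-112455024 on the plus strand), Rap1gap2 (chr11:74590197-74590416 on the minus strand) and Pick1 (chr15:79229242-79229381 on the plus strand) are shown because they were lower in pronuclei, and Gpat2 (chr2:127425159-127425198 on the plus strand) because it was higher. Dnmt1 (chr9:20952664-20952833 on the minus strand), Plagl1 (chr10:13090622-13090831 on the plus strand) and Mcts2 (chr2:152686928-152687147 on the plus strand) are shown because they were methylated in the oocyte and stayed close to that level.
Emc7: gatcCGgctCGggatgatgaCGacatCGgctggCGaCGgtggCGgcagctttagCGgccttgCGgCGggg
Rap1gap2: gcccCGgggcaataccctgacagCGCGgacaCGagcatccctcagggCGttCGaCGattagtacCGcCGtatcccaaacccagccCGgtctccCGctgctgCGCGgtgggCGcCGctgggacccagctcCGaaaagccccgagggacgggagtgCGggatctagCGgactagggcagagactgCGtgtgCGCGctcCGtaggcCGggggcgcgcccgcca
Pick1: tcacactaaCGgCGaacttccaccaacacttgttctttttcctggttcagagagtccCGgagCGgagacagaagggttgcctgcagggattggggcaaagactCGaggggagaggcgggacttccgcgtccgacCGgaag
Gpat2: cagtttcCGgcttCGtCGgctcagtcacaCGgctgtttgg
Dnmt1: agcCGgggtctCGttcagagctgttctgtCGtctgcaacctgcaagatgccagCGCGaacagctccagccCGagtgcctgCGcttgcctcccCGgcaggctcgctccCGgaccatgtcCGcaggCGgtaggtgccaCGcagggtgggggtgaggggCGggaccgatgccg
Plagl1: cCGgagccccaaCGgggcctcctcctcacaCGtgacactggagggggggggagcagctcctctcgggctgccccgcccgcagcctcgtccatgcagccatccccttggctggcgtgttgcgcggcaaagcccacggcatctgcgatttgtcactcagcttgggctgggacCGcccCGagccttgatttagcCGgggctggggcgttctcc
Mcts2: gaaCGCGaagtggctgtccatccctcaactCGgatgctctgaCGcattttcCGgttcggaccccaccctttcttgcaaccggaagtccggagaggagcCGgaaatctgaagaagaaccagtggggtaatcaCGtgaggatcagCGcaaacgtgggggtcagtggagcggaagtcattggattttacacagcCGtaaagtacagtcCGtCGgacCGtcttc

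Maternal pronuclei carried less methylation than oocytes, and the difference lay mostly at sites that were methylated or partly methylated in the egg. Over all member positions the mean level was 18.6% and 18.7% in the oocyte libraries and 15.1% and 15.9% in the pronuclear ones. The difference of the means was −3.11 points, with the 4 differences between single libraries from −3.54 to −2.68, and pronuclei held 83.3% of the oocyte level. Both pronuclear libraries lay below both oocyte libraries. An exact two-sided permutation test of 2 against 2 libraries gave p = 0.333, the smallest value it can give, and each mean below whose groups do not overlap has the same p.

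The 100-bp tiles were sorted by their mean level in the oocyte libraries alone. In the 32699 tiles methylated in oocytes (75% or more) the mean level was 96.3% and 96.4% in oocytes and 79.8% and 83.1% in pronuclei, a difference of −14.9 points (−16.6 to −13.2). Their median was 100% in both oocyte libraries and 89.2% and 90.3% in pronuclei. In the 10540 partly methylated tiles the level was 47.6% and 47.9% in oocytes and 33.8% and 35.8% in pronuclei, so that pronuclei held 72.8% of it. The 127220 unmethylated tiles (25% or less) were at 2.05% and 2.09% in oocytes and 1.84% and 2.06% in pronuclei, and there the single differences crossed 0, from −0.256 to 0.0102 points (exact permutation p = 0.667). Because the class was set by the oocyte libraries, chance in them is part of the drop. With the class taken from 1 oocyte library and the change read against the other, the difference in methylated tiles was −13.8 and −14.0 points.

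**Figure D1:**
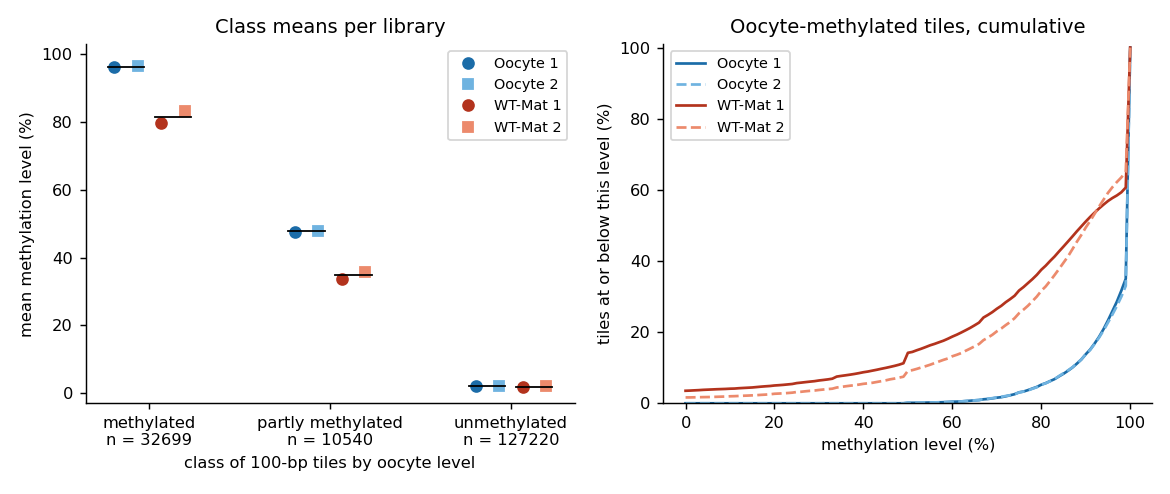
Left, mean methylation level (%) of 100-bp tiles per library, in 3 classes set by the oocyte level, with points for libraries and bars for group means. Right, share of oocyte-methylated tiles (%) at or below each level (%) in each library. The methylated class sits at 96.3% and 96.4% in oocytes and 79.8% and 83.1% in pronuclei, and the pronuclear curves rise well before 90% while the oocyte curves overlap each other.

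The loss was spread over many tiles rather than held by a few. In oocytes 86.6% of the methylated tiles had a level of 90% or more in each library, and in pronuclei 48.99% and 50.8% did. Levels from 50% to 75% were found in 2.76% and 2.74% of these tiles in oocytes and in 19.7% and 17.1% in pronuclei. Levels under 10%, which the limit of the class does not allow in oocytes, were found for 4.08% of tiles in WT-Mat 1 and 1.95% in WT-Mat 2, against 1.45% and 1.10% between 10% and 25%. WT-Mat 1 thus had the lower mean and the larger share of tiles near 0, while the shares at 90% or more differed little between the pronuclear libraries.

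Single tiles repeated less well than the mean. A drop of at least 25 points from the oocyte mean was seen in 27.7% of methylated tiles in WT-Mat 1 and in 21.2% in WT-Mat 2, and in both libraries in 9.49%. The oocyte libraries stood 25 points or more apart in 3.74% of these tiles and the pronuclear libraries in 28.3%. Both pronuclear libraries lay below both oocyte libraries in 37.1% of the methylated tiles and above both in 2.09%, against 14.3% and 2.94% of all 100-bp tiles. For methylated 1000-bp tiles these shares were 48.6% and 1.62%, against 25.1% and 4.41% of all 1000-bp tiles. Of the 170459 100-bp tiles, 127220 were unmethylated in oocytes and had little room to fall. Methylated tiles in turn had little room to rise, so these shares are partly set by the classes. The change in replicate 1 and the change in replicate 2 correlated over the methylated tiles at r = 0.21, a description over tiles that share their libraries, and at r = 0.39 over the 1313 tiles with 200 or more calls in every library. Within a pair the pronuclear libraries differed by 31.4 times the variance that counting reads would give, and the oocyte libraries by 11.3 times. These are averages over 48053 and 28252 tiles of all classes with enough calls. Such a ratio grows with depth, which was greater in the pronuclear libraries, so the 2 values are not on the same scale.

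Neighbouring tiles carried related changes. For directly adjoining methylated tiles (6296 pairs) the change from the oocyte mean correlated at r = 0.30 in WT-Mat 1 and 0.37 in WT-Mat 2, and at r = 0.23 when the tile of 1 library was set against the neighbour in the other library. For consecutive methylated tiles 1100 to 5000 bp apart (4785 pairs) these values were 0.12, 0.13 and 0.10. Adjoining tiles can share reads within a library but not between libraries, and both tiles are set against the same oocyte libraries, so these are descriptions.

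In each pronuclear library the share of methylation kept was lower in tiles at 5% to 50% in oocytes than in tiles at 75% or more. Tiles were binned on Oocyte 1 and the change was read against Oocyte 2. At 5% to 25% (16160 tiles) pronuclei held 70.8% and 79.5% of the oocyte level, at 25% to 50% (5775 tiles) 70.9% and 76.9%, at 75% to 90% (4380 tiles) 79.1% and 83.5%, and at 99% to 100% (21410 tiles) 84.3% and 87.8%. Binned on Oocyte 2 and read against Oocyte 1 these shares were 71.4% and 79.7%, 71.8% and 76.9%, 78.9% and 83.1%, and 84.0% and 87.5%. In tiles under 5% (110793 tiles binned on Oocyte 1) pronuclei held 75.4% and 82.7%, and binned on Oocyte 2 78.8% and 87.8%. The share kept thus did not rise steadily with the oocyte level. In points the drop was largest in the 75% to 90% bin, at −15.5 and −15.8 in the 2 readings.

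Tiles with more covered CpGs had the smaller drop. Methylated tiles with 2 covered positions (17248 tiles) stood at 96.4% and 96.5% in oocytes and 78.4% and 81.8% in pronuclei, a difference of −16.3 points. With 5 to 8 positions (3464 tiles) the pronuclear levels were 83.4% and 86.0% and the difference −11.3 points. With 9 to 16 positions (550 tiles) they were 84.8% and 87.6% and the difference −8.96 points. Tiles of 9 to 16 positions were lower than tiles of 2 in oocytes, by −1.09 and −1.52 points, and higher in pronuclei, by 6.36 and 5.77 points, so the groups did not overlap (exact permutation p = 0.333).

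Depth moved with this result, since tiles with more positions hold more calls. Tiles whose shallowest library had at least 10 and under 20 calls differed by −17.3 points and those with at least 200 and under 500 calls by −10.2 points. Among tiles with at least 100 and under 200 calls in the shallowest library the difference was −15.0 points for 2 positions (659 tiles) and −9.80 points for 9 to 16 positions (162 tiles), so that the change with CpG number was also found within this band of depth. There the tiles of 9 to 16 positions stood above the tiles of 2 by 4.02 and 5.24 points in pronuclei and below them by −0.115 and −0.959 points in oocytes.

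**Figure D2:**
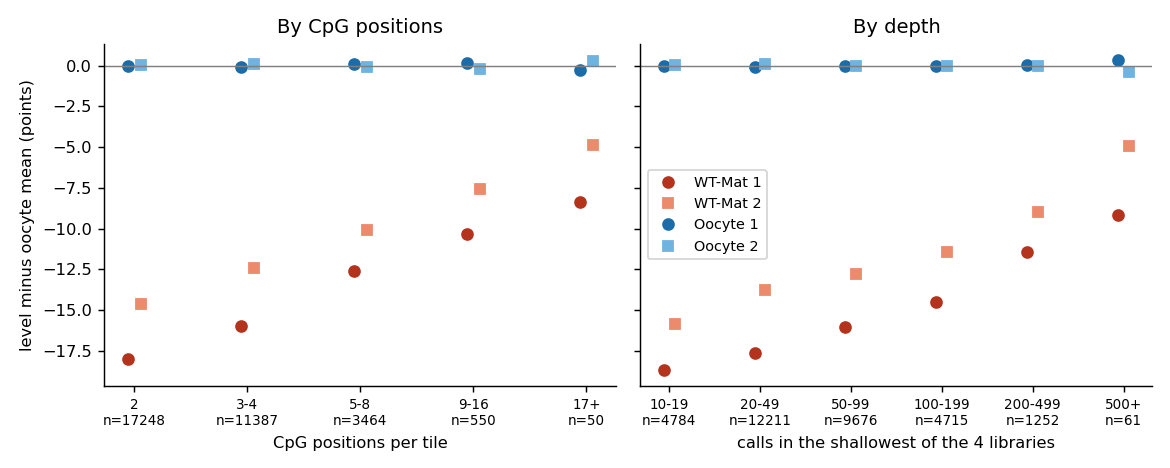
Level minus the oocyte mean (percentage points) over oocyte-methylated 100-bp tiles, by the number of covered CpG positions per tile (left) and by the calls in the shallowest of the 4 libraries (right). Points are libraries and n is the number of tiles; both pronuclear libraries lie below both oocyte libraries in every bin, and the gap narrows from −16.3 points at 2 positions to −8.96 at 9 to 16.

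Every autosome was lower in pronuclei. Over methylated 100-bp tiles all 19 autosomes had both pronuclear libraries below both oocyte libraries. Chromosome 18 (925 tiles) had the largest difference, with 96.1% and 96.4% in oocytes and 76.5% and 79.8% in pronuclei (−18.1 points, −19.9 to −16.3). Chromosome 5 (3234 tiles) had the smallest, with 96.6% and 96.8% in oocytes and 82.5% and 85.6% in pronuclei. Chromosome 6 stood next to chromosome 18 at −17.7 points (−20.0 to −15.3), and their ranges overlap.

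**Figure D3:**
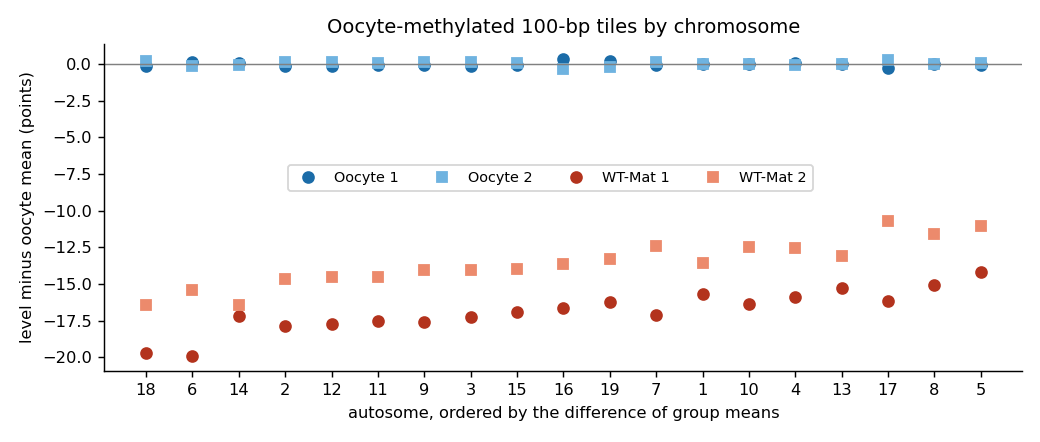
Level minus the oocyte mean (percentage points) of oocyte-methylated 100-bp tiles on each autosome, with 1 point per library and autosomes ordered by the difference of group means. All 19 autosomes lie below 0 in both pronuclear libraries, from −18.1 points on chromosome 18 to the smallest difference on chromosome 5, and WT-Mat 1 is the lower library on each.

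The drop in tiles was also read by the level that the site had in sperm. Oocyte-methylated tiles at 25% or less in sperm (4481 tiles) stood at 95.3% in both oocyte libraries and at 79.6% and 82.1% in pronuclei (−14.4 points). Those at 75% or more in sperm (26033 tiles) stood at 96.6% and 96.7% in oocytes and 79.9% and 83.4% in pronuclei (−14.9 points). The gap between these sets was 1.29 and 1.37 points in oocytes and 0.298 and 1.34 points in pronuclei, and these values overlap (exact permutation p = 0.667). The 1742 tiles between these limits differed by −15.7 points. Of the promoters described below, the 184 methylated ones at 25% or less in sperm differed by −9.20 points (−11.1 to −7.29) and the 40 at 75% or more by −12.6 points (−15.5 to −9.75), and these ranges overlap.

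Imprinting control regions kept nearly all of their methylation. Windows for 19 such regions were taken from general knowledge of their place in build mm9, since no annotation of that build was used here, and were checked against the gametes. All 16 maternal windows had covered positions (344 in all), lay at 90.7% or more in each oocyte library and at 13.4% or less in sperm. Their mean level was 96.8% in both oocyte libraries and 94.9% and 91.6% in pronuclei, a difference of −3.60 points (−5.28 to −1.92). In 12 of the 16 windows the mean of the pronuclear libraries stayed within 5 points of the oocyte mean. The same held for 30.8% of methylated 100-bp tiles and 26.0% of methylated 1000-bp tiles. A single library could lie further off, as in Grb10 (92.4% in WT-Mat 1, 98.7% and 98.6% in oocytes). Pronuclei were below both oocyte libraries in 7 of the 16 windows and above both in 1, a count to be read beside the 37.1% of methylated 100-bp tiles and 48.6% of methylated 1000-bp tiles that lay below both. The mean difference was −1.94 points without WT-Mat 2 and −5.27 without WT-Mat 1.

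Among these windows, Plagl1, which encodes a zinc finger protein, was read at 49 positions with 97.3% and 98.9% in oocytes and 97.9% and 94.7% in pronuclei. Grb10, the gene of a signalling adaptor, was read at 76 positions with 98.7% and 98.6% in oocytes and 92.4% and 98.5% in pronuclei. Snrpn, which encodes a splicing protein, stood at 100% and 96.2% in oocytes and 93.9% and 97.9% in pronuclei. In each of these windows at least 1 pronuclear library lay within 1 point of the oocyte range, and in Plagl1 and Snrpn the groups overlapped (exact permutation p = 0.667 in both).

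Peg3, the gene of another zinc finger protein, had both pronuclear libraries below both oocyte libraries by more than in any other window, at 95.8% and 100% in oocytes and 84.9% and 87.7% in pronuclei over 8 positions. Kcnq1ot1, a long noncoding RNA, stood at 98.6% and 98.1% in oocytes and 82.5% and 94.6% in pronuclei. Inpp5f, the gene of an inositol phosphatase, was at 100% and 91.8% in oocytes, 100% in WT-Mat 1 and 40.0% in WT-Mat 2, where 24 of 60 calls over 5 positions were methylated. Its 2 pronuclear libraries thus lay far apart (exact permutation p = 1), and without Inpp5f the mean of the other 15 windows was 94.6% in WT-Mat 1 and 95.0% in WT-Mat 2. The remaining windows (Peg10, Mest, Nap1l5, Zrsr1, Igf2r, Peg13, Mcts2, Nnat, Nespas and Gnas1A) were at 88.6% or more in each pronuclear library.

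**Figure D4:**
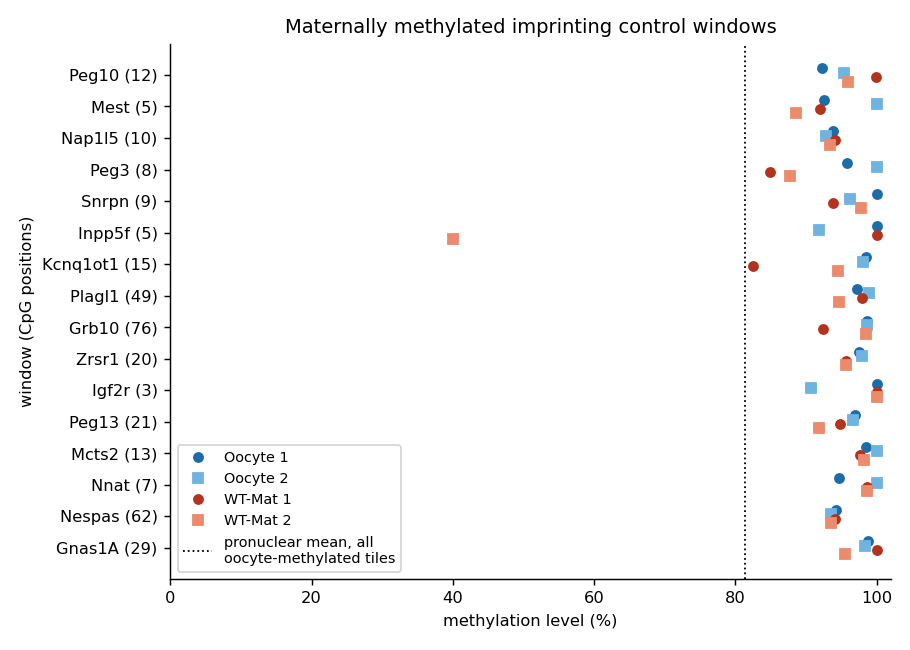
Methylation level (%) of the 16 maternally methylated imprinting control windows in each library, with the number of covered CpG positions in brackets and a dotted line at the pronuclear mean of all oocyte-methylated 100-bp tiles. All windows but Inpp5f in WT-Mat 2 (40.0%) lie to the right of that line.

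Tiles with the same gametic pattern elsewhere in the genome were lower. The 52 oocyte-only tiles inside the windows (methylated in oocytes, 25% or less in sperm) stood at 97.4% and 97.6% in oocytes and 95.7% and 93.2% in pronuclei. The 4429 such tiles outside the windows stood at 95.2% and 95.3% in oocytes and 79.4% and 82.0% in pronuclei. Tiles inside exceeded tiles outside by 2.16 and 2.39 points in oocytes and by 16.2 and 11.3 points in pronuclei, a change of 11.5 points (exact permutation p = 0.333). None of the 52 tiles was lower by 25 points in both pronuclear libraries, against 11.1% of those outside. Tiles inside held 6.15 covered positions on average and those outside 4.37. At equal numbers of positions the differences were −2.07 against −14.4 points for 3 to 4 positions (16 and 1618 tiles). They were −4.18 against −12.6 for 5 to 8 (20 and 975 tiles) and −2.42 against −8.96 for 9 or more (9 and 414 tiles). For 2 positions (7 and 1422 tiles) they were −3.07 against −17.7. In those 7 tiles the groups overlapped, with single differences from −8.79 to 2.66 points.

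The paternal imprints bear on the identity of the pronuclei. H19 and Rasgrf1, each read at only 2 positions and methylated at 99.1% and 92.9% in sperm, had 0 methylated calls in all 4 libraries. In WT-Mat 1 and WT-Mat 2 there were 88 calls each at H19, which allows up to 3.41% methylation, and 38 and 54 calls at Rasgrf1, which allows up to 7.89% and 5.56%. Limits of this kind, here and below, cover counting error only, since reads copied by PCR are not independent molecules. The third paternal window had no covered position.

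Promoters were located by matching the spacing of CpGs in the RefSeq promoter sequences to that of the CpG positions in the files. Of 9539 located promoters, 7538 of 7187 genes had at least 2 member positions. In oocytes 7212 of them were unmethylated, 96 partly methylated and 230 methylated. The 230 methylated promoters stood at 95.7% and 95.0% in oocytes and 84.0% and 87.4% in pronuclei, a difference of −9.65 points (−11.7 to −7.64). They stood below the oocyte-methylated 100-bp tiles in oocytes, by −0.636 and −1.38 points, and above them in pronuclei, by 4.26 and 4.27 points (exact permutation p = 0.333). Promoters are longer and hold more positions, and with 5 to 16 positions the drops were close, at −11.1 points against −11.3 for tiles at 5 to 8 positions (79 promoters) and −8.54 against −8.96 at 9 to 16 (57 promoters). The 67 promoters with 2 to 4 positions differed by −9.80 points, against −16.3 and −14.2 for tiles of 2 and of 3 to 4. Both pronuclear libraries lay below both oocyte libraries in 95 of the 230 (41.3%) and above both in 7 (3.04%), against 9.56% and 3.53% of all promoters tested. The 7212 unmethylated promoters had little room to fall and the 230 methylated ones little room to rise, which partly sets these shares. Of the 230, 80 were at 90% or more in both pronuclear libraries, 96 were within 5 points of the oocyte mean, and 13 were lower by 25 points or more in both libraries.

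A list of 16 genes related to DNA methylation or to chromatin was chosen after values were seen, and 9 of them had a measured promoter. Of their 10 promoters 4 were methylated in oocytes, against 230 of all 7538 promoters tested. Because the list was picked by hand, this is a description. The located promoter of Dnmt1, the maintenance methyltransferase, was at 98.3% and 97.8% in oocytes and 95.6% and 91.2% in pronuclei, with 636 or more calls per library. That of Tet3 was at 100% in both oocyte libraries and at 87.2% and 99.8% in pronuclei. Of the 2 promoters of Kdm2b, which encodes a CpG-binding histone demethylase, 1 was at 96.1% and 98.3% in oocytes and 96.5% and 92.5% in pronuclei, and the other at 98.1% and 98.9% in oocytes and 98.4% and 88.1% in pronuclei. These 4 promoters were at 0.289% or less in sperm and none was called. The remaining 6 promoters, of Dnmt3a, Uhrf1, Tdg, Mbd4, Setdb1 and Ehmt2, were at 1.67% or less in all 4 libraries.

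A promoter was called at a Benjamini-Hochberg adjusted p under 0.05 from a quasi-binomial model fitted over all promoters, with limma shrinkage of the dispersion, and a difference of 10 points or more. On this rule 10 of the 7538 promoters fell (0.133%) and 3 rose (0.0398%). Of these 13 calls, 2 (Emc7 and Gpat2) held without Oocyte 1 and 1 (Emc7) without Oocyte 2. The called promoters are all named below, while other promoters and the sequences shown were chosen after their values were seen.

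Emc7, the gene of a subunit of the endoplasmic reticulum membrane protein complex, was at 62.6% and 60.9% in oocytes and had 0 methylated calls in both pronuclear libraries. With 1082 and 582 calls there, up to 0.277% and 0.515% methylation is allowed by counting error alone. The spread between libraries is wider than that, and a median promoter carried the information of about 13.0 independent calls per library. The adjusted p of the quasi-binomial model was 1.27e-09. Rap1gap2, the gene of an activator of the GTPase activity of Rap1, fell from 98.2% and 97.3% to 54.5% and 55.1% over 24 positions (limma-shrunk model, adjusted p = 3.72e-05). In both promoters the pronuclear libraries lay close together, and far from the oocyte libraries.

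Pick1, which encodes a PDZ protein that binds protein kinase C, fell from 56.2% and 60.3% to 4.54% and 10.1% (limma-shrunk model, adjusted p = 2.77e-05). S1pr2, the gene of a sphingosine 1-phosphate receptor, fell from 91.0% and 93.0% to 0% and 31.1%. Samm50, the gene of a component of the sorting and assembly machinery of the mitochondrial outer membrane, fell from 95.0% and 99.6% to 19.8% and 47.3%. In these promoters the groups did not overlap, but the pronuclear libraries of S1pr2 and Samm50 stood far apart. Without WT-Mat 1 the call of S1pr2 was lost (−61.0 points, limma-shrunk model, adjusted p = 0.0671).

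Pigl, the gene of a deacetylase of GPI anchor synthesis, fell from 80.6% and 70.4% to 32.1% and 12.8%. Marchf10, the gene of an E3 ubiquitin ligase, fell from 70.8% and 51.0% to 4.92% and 0%. Hmgb1, which encodes a chromatin protein of the high mobility group, fell from 83.0% and 77.3% to 58.8% and 53.3%. The remaining 2 that fell, Gm30940 and 3010003L21Rik, were at 48.5% and 74.0% and at 39.9% and 52.7% in oocytes, and at 6.04% and 10.3% and at 7.17% and 19.5% in pronuclei. All 10 promoters that fell were at 0.926% or less in each sperm library, and 5 of them were only partly methylated in the oocyte. Low sperm levels were common, since 184 of the 230 methylated promoters were at 25% or less in sperm. Among all promoters tested, 96 were partly methylated and 230 methylated in the oocyte.

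Gpat2, the gene of a mitochondrial glycerol-3-phosphate acyltransferase, rose from 16.0% and 9.38% in oocytes to 97.4% and 85.6% in pronuclei (limma-shrunk model, adjusted p = 8.17e-09) and was at 0.139% and 0.280% in sperm. Clcn4, the gene of a chloride and proton exchanger, rose from 0% in both oocyte libraries to 26.3% and 8.41%. Dapk1, the gene of a death-associated protein kinase, rose from 0% and 0.694% to 4.52% and 45.4%. The last 2 calls were each lost without 1 pronuclear library. Without WT-Mat 2 the difference of Dapk1 fell from 24.6 to 4.17 points (limma-shrunk model, adjusted p = 1), and without WT-Mat 1 that of Clcn4 fell from 17.3 to 8.41 points, under the minimum of 10. In all 3 the sperm level was 0.682% or less in each library, below every pronuclear value.

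The promoter of Fam98b had the largest drop of the methylated promoters, from 100% in both oocyte libraries to 0% in both pronuclear ones, and was not called. It had 20 calls in WT-Mat 1, which allows up to 15.0% methylation, and its adjusted p in the quasi-binomial model was 0.340. The 1000-bp tile that holds it was called and is described below.

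The 6 libraries of other maternal pronuclei were not used for these calls. They came from WT zygotes given aphidicolin, which blocks DNA replication (WT-Mat-Aphi), and from zygotes of Tet3 CKO females (Zp3-Cre, f/-) without it (CKO-Mat) and with it (CKO-Mat-Aphi). Zp3-Cre is active in growing oocytes. At Emc7 they read 0% and 80.4% (WT-Mat-Aphi), 15.4% and 0.0824% (CKO-Mat) and 81.1% and 3.64% (CKO-Mat-Aphi). At Gpat2 they read 0% and 81.0%, 49.8% and 67.1%, and 25.3% and 0% in the same order. At Rap1gap2 they read 42.4% and 100%, 61.4% and 42.5%, and 69.0% and 96.8%. At Emc7 5 of these 6 libraries thus stood above both WT-Mat libraries, which read 0%. Of those 5, CKO-Mat 2 (0.0824%) and CKO-Mat-Aphi 2 (3.64%) lay close to 0%. At Gpat2 all 6 stood below both WT-Mat libraries. At Rap1gap2 they stood on both sides, 2 below and 4 above.

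**Figure D5:**
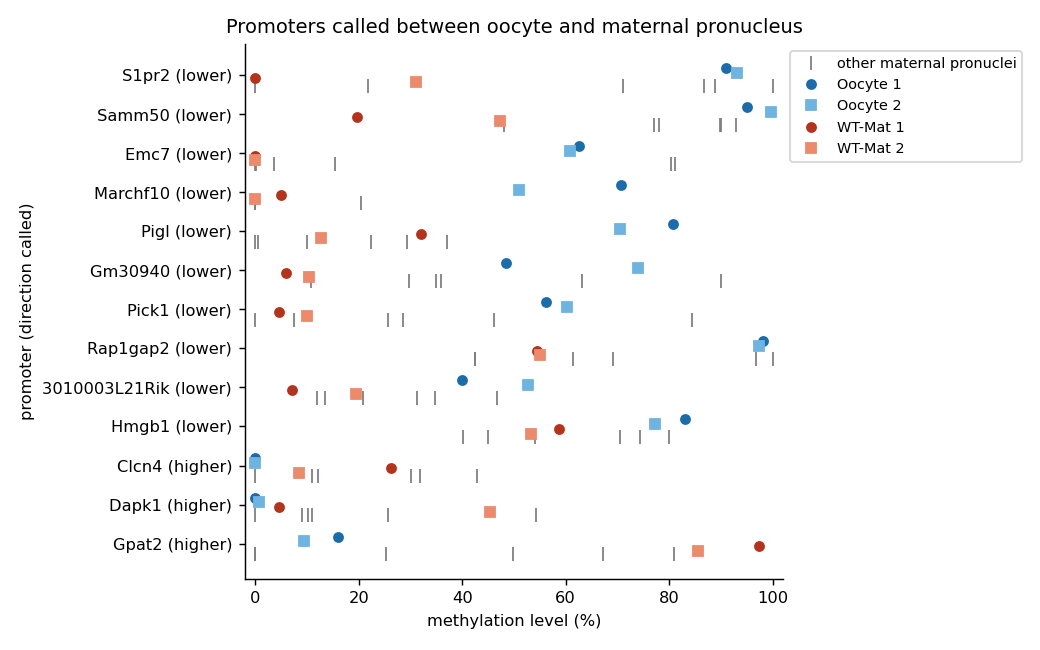
Methylation level (%) of the 13 called promoters in the oocyte and WT-Mat libraries (coloured points) and in the 6 other libraries of maternal pronuclei (grey ticks), which were not used for the calls. Oocyte and WT-Mat points do not overlap in any row, while the grey ticks are spread widely in many rows, from 0% to 81.1% at Emc7, and do not reach the oocyte values at Marchf10, Pigl or Samm50.

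At the level of tiles few were called, and many more of those fell than rose. Among 100-bp tiles 61 fell (0.0358%) and 18 rose (0.0106%), and 3276 lower and 442 higher tiles had an unadjusted p under 0.05. Among 1000-bp tiles 427 fell (0.373%) and 85 rose (0.0743%), and in 425 (0.372%) and 80 (0.0699%) of these the groups did not overlap. Of the 61 tiles that fell, 40 were methylated in oocytes (0.122% of that class), 21 partly methylated (0.199%) and 0 unmethylated. The 18 that rose were all unmethylated in oocytes. The class limits leave methylated tiles little room to rise and unmethylated tiles little room to fall. At 1000 bp 288 of the fallen tiles were methylated, 108 partly methylated and 31 unmethylated in oocytes. Of the 1000-bp tiles that rose, 74 were unmethylated and 11 partly methylated. Called tiles were deeper than others, with a median of 310 and 323 calls per library for those that fell and rose, against 114 over all tiles.

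The tiles that fell furthest went from complete to no methylation. On chromosome 2, 117075601 to 117075700 (mm9), 0.077 kb from the located promoter of Fam98b, 8 positions were at 100% in both oocyte libraries and at 0% in both pronuclear libraries, with 523 and 472 calls in the latter (quasi-binomial model, adjusted p = 0.00237). The 1000-bp tile around it, which overlaps that promoter, held 13 positions at the same levels. Both sperm libraries were at 0% over the 100-bp tile.

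On chromosome 14 called tiles lay close to each other. At 78707601 to 78707800, 24 positions went from 97.5% and 99.9% to 0% in both pronuclear libraries, with 669 and 1214 calls. At 78695801 to 78695900, 3 positions went from 97.5% and 100% to 0.452% and 0%, and at 78696701 to 78696800, 5 positions went from 100% in both to 6.65% and 0%. The 1000-bp tile at 78689001 to 78690000 went from 100% and 99.4% to 0% in both. The first of these tiles was at 0.0754% and 0.148% in sperm and the second at 97.6% and 98.1%, so that neighbouring tiles that fell had differing levels in sperm.

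The remaining 6 of the 10 named regions that fell had both oocyte libraries at 89.6% or more and both pronuclear libraries at 15.0% or less. The region on chromosome 15 at 84586801 to 84586900 was at 100% in both oocyte libraries and at 0% and 15.0% in pronuclei. The other maternal pronuclear libraries that read it were at 74.1% to 100%. The region on chromosome 2 at 50844001 to 50844100 went from 89.6% and 100% to 0% and 5.30%. It was at 0% in 5 of the 6 other maternal pronuclear libraries and at 29.1% in the other. Such a match with WT-Mat was not general. At the chromosome 14 region from 78707601 to 78707800 these libraries ranged from 0% to 99.9%.

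Tiles that rose reached nearly full methylation in a few places. On chromosome 6 at 120922601 to 120922700, 2 positions were at 0% and 10.2% in oocytes and at 100% in both pronuclear libraries. On chromosome 3 at 137400401 to 137400500, 3 positions were at 0% in both oocyte libraries and at 85.3% and 79.3% in pronuclei. The tile in the Gpat2 promoter was among the 6 named regions that rose. On chromosome 11 the 1000-bp tile at 117978001 to 117979000 went from 0% in both oocyte libraries to 98.5% and 98.3%.

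At the fallen tiles the medians of the other maternal pronuclei lay between those of oocytes and of WT-Mat. In the 34 of 61 fallen 100-bp tiles with 10 or more calls in all 6 other libraries, the median level was 74.9% and 76.7% in oocytes and 0.205% and 4.69% in WT-Mat. It was 39.4% and 49.4% in the WT-Mat-Aphi libraries, 28.1% and 30.2% in CKO-Mat and 50.9% and 53.5% in CKO-Mat-Aphi. These 6 libraries did not choose the tiles and the 4 compared did, so the size of the change in WT-Mat is that of chosen tiles.

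Tiles that were higher in pronuclei were also read by their level in sperm. Among the 127220 tiles unmethylated in oocytes, 467 (0.367%) were higher by 25 points or more in both pronuclear libraries. Of the 450 of these with enough sperm calls, 286 (63.6%) were at 75% or more in sperm, against 27.3% of all unmethylated tiles, a difference that was not tested. Of the 18 tiles called higher at 100 bp, 8 were at 75% or more in sperm and 9 at 25% or less. At 1000 bp these were 46 and 36 of 85. Shares called were taken over all tiles tested, whatever their oocyte level. At 100 bp they were 0.0117% for tiles at 75% or more in sperm and 0.00970% for those at 25% or less. At 1000 bp they were 0.0658% and 0.0991%. A tile methylated in oocytes has little room to rise, so these shares cannot be set beside those of unmethylated tiles above. Of the oocyte-methylated 100-bp tiles, 26033 were at 75% or more in sperm and 4481 at 25% or less. The share of calls on chromosome Y, which an oocyte lacks, was 0.000692% in WT-Mat 1 and 0.000198% in WT-Mat 2, or 4.21% and 1.21% of the mean share in WT paternal pronuclei. Its part in these tiles was not tested. Over all 34365 tiles unmethylated in oocytes and methylated in sperm, the mean was 4.03% and 4.04% in oocytes and 3.77% and 4.32% in pronuclei, a difference of 0.00172 points that spans 0 between libraries (exact permutation p = 1).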

How the data were processed

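Members and lists were chosen with earlier results of these data known. For each CpG position the deposited files hold the percent methylated and the counts of methylated and unmethylated calls, on build mm9, made by the authors with Trim Galore and Bismark 0.10.1 per the submitters' processing notes; for filters, duplicates and conversion rates, nothing is given in the sources used here. The deposited percent is the one these counts give, so the counts were used. Depth at member positions is given in the report, and limits for counts of 0 are 3 calls of the total.

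A tile's level is 100 times methylated over all calls at its member positions. Tiles and promoters were tested with a quasi-binomial logistic model (R 4.3.3), with dispersion from groups whose libraries each expect 5 or more calls of both kinds, trended on depth, shrunk with limma 3.58.1 and floored at 1, an F test and Benjamini-Hochberg adjustment. The shrinkage set each dispersion to its trend, with a median of 31.1 for 100-bp tiles, so a median tile carried the information of about 3.98 independent calls per library. Set means were tested by exact permutation. The scripts were tested on simulated counts.

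Promoters (300 bases, RefSeq, GRCm38.p6) were placed among the mm9 positions by the spacing of their CpGs, since no mm9 genome was used here. At first 6724 were placed with 12 or more matching positions and a margin of 5 over the next best place, against 19 with reversed letters, and 9 that disagreed with their neighbours were dropped. A further 2824 with 6 or more positions were placed at the offset of the nearest promoter, against 0 with reversed letters. No coordinate was converted in any other way.

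Named regions joined called tiles under 500 bp apart (1000-bp tiles: adjoining) with 20 or more calls in each library and no overlap of groups, ranked by difference: the first 10 lower and 6 higher of 100-bp tiles and the first 8 and 6 of 1000-bp tiles, of which the text gives a part. Alternatives were coverage, weighting, class limits, dispersion rules, limma on transformed levels, a replicate block and leaving out libraries. Replicate numbers did not pair the libraries (correlation of deviations −0.00207 over 100-bp tiles).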

Additional observations from a re-analysis of the deposited data

Results flagged for a closer look

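A signal on chromosome Y, which lies outside the autosomes compared and which an egg does not carry, was found in both pronuclear libraries above the oocyte libraries. It made up 0.000692% of calls (459 calls) in WT-Mat 1 and 0.000198% (118 calls) in WT-Mat 2, against 14 and 20 calls in the oocyte libraries. The part of such DNA in the results was not tested.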

How the results depend on the processing

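The mean over positions, the mean over oocyte-methylated tiles and the mean over imprinting windows kept their direction under every alternative run for them, and their exact permutation p of 0.333 cannot pass a threshold. Leaving out each library in turn gave −3.51 to −2.71 points for positions, −16.6 to −13.3 for methylated tiles and −5.27 to −1.94 for windows. With a replicate block, the means were unchanged and the smallest exact permutation p was 0.5.

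Counts of calls depended strongly on the model. In the order 100-bp tiles lower and higher, 1000-bp tiles lower and higher, promoters lower and higher, the reported counts were 61, 18, 427, 85, 10 and 3. Dispersion from all groups gave 1399, 213, 2350, 286, 64 and 23. No trend gave 223, 59, 713, 119, 17 and 9, and the floor before shrinkage 39, 7, 263, 64, 5 and 2. Limma on arcsine square roots gave 780, 77, 1088, 85, 5 and 0, and it shared 10 of the 61 fallen 100-bp tiles. Limma on log2 ratios called 0 in each, with 17052, 1997, 16321, 1492, 635 and 77 at an unadjusted p under 0.05. The replicate block, whose numbers do not pair the libraries, gave 92, 29, 495, 88, 5 and 1. Dispersion from all 10 maternal-lineage libraries, on fewer tiles, gave 7, 1, 17 and 3 for tiles. A minimum of 20 reads gave 241 and 46 for 1000-bp tiles, dispersion from groups expecting 10 calls gave 8 for 100-bp tiles higher, and a minimum of 25 points gave 1 for promoters higher.

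Leaving out each library in turn gave 3 to 3744, 0 to 529, 12 to 4827, 1 to 526, 1 to 34 and 0 to 22. The low ends came without Oocyte 1 or Oocyte 2 and the high ends without WT-Mat 2. By construction the dispersion comes from the complete pair alone, the pronuclear one in the first case and the oocyte one in the second. The cause of the gap between leaving out WT-Mat 1 and WT-Mat 2 was not tested. Without Oocyte 1 the counts were 3, 0, 20, 7, 1 and 1, without Oocyte 2 they were 3, 0, 12, 1, 1 and 0, and without WT-Mat 1 they were 1129, 244, 1416, 257, 25 and 6. Of the 13 called promoters 2 and 1 kept their call without Oocyte 1 and Oocyte 2, and 11 and 12 without WT-Mat 1 and WT-Mat 2. No call of a named region or promoter changed direction under any alternative, but many were lost. Of the 16 named 100-bp regions, 14 named 1000-bp regions and 13 promoters, limma on arcsine square roots kept 5, 10 and 1. The floor before shrinkage kept 10, 12 and 7, and limma on log2 ratios 0 of each. Most named regions also lost their call without Oocyte 1 and without Oocyte 2. The 61 and 18 called 100-bp tiles all had groups that did not overlap.

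Spread between libraries limits single tiles more than depth does. A median 100-bp tile held 124 calls per library and, at a dispersion of 31.1, carried the information of about 3.98 independent calls, so differences of single tiles were often not detectable. The oocyte and pronuclear files differ in how they were written, and duplicates were not counted apart.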

Other observations

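Chromosome X, which is not among the autosomes compared, had 611 oocyte-methylated 1000-bp tiles of 2781 covered. They stood at 93.6% and 94.6% in oocytes and at 74.0% and 76.7% in pronuclei, a difference of −18.7 points (−20.6 to −16.9), against −15.3 points (−17.1 to −13.5) over the autosomes. The difference between X and the autosomes was not tested.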
